A study of Mus musculus with 6 samples.

Results

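The reticulons and other proteins that shape the endoplasmic reticulum (ER) were examined as a group of 10 genes: the reticulons Rtn1, Rtn2, Rtn3 and Rtn4, the atlastins Atl2 and Atl3, the REEP proteins Reep3, Reep4 and Reep5, and Ckap4. They were taken as genes with a probe set that carried only their symbol, using the brightest probe set on average over 6 arrays where a gene had several. Of the 10 genes, 9 were found among 19938 named genes on the array, and Atl2 is not analysed here. The group was selected on measured values: the difference between the arrays was already known, and Rtn1 had the second largest fall of 14953 genes tested. The values of the 9 genes in this comparison are therefore given as a description, without p-values.

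The RNA came from C57BL/6 mouse pre-B cells transformed by BCR-ABL1, a fused tyrosine kinase that drives a form of acute lymphoblastic leukaemia. All cells were Inpp5d fl/fl, that is, with floxed alleles of the gene for the lipid phosphatase SHIP1. On 3 arrays the cells carried the PMIP-CRE-ERT2 construct, a Cre recombinase that tamoxifen activates, and on 3 arrays the PMIP-ERT2 construct without Cre. They are called Cre-labelled arrays and controls here. Both groups had received 4OH-Tamoxifen at 0.5 µM for 2 days and were puromycin resistant. No group had Cre without floxed alleles, so an effect of Cre itself and an effect of the floxed gene cannot be told apart. The labels name no separate cultures or mice, so the spread between arrays of a group may be technical. Values are normalized log2 values of probe sets, and a difference of 1 is a doubling of signal.

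The ER is a single membrane network of flat sheets and narrow tubules. Reticulons and REEP proteins of the DP1 type insert hairpins into the outer leaflet of the membrane and bend it into tubules, atlastins are GTPases that fuse tubules into junctions, and CKAP4 (CLIMP-63) spans the lumen of sheets and ties them to microtubules. Rtn1 is best known as a marker of neurons and neuroendocrine cells, whereas Rtn3 and Rtn4 (Nogo) are made in many tissues. In lymphocytes the network is reorganised when B cells become plasma cells.

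Before the members, the arrays themselves were checked. The targeted gene Inpp5d read 13.37, 13.34 and 13.34 on the log2 scale in the Cre-labelled arrays and 13.20, 13.21 and 13.17 in the controls, so it was not lower where Cre was given. The sources used here do not say whether its probe set lies in the deleted part, and directions below are those of the labels. Correlations between arrays over all probe sets ranged from 0.988 to 0.997, and Cre-labelled array 3 was most like control array 3 (r = 0.997). Of 13 B lineage markers 12 were measured, and all 12 were above the filter on dim genes. That filter was a mean log2 value of at least 7.35, the 25th percentile of genes. The signals of the markers were summed on the linear scale, where the brightest genes weigh most. The log2 of that sum lay from 16.62 to 16.64 in the controls and from 16.61 to 16.67 in the Cre-labelled arrays. Between the groups, Cd22, an inhibitory receptor gene, was lower (difference -0.51, limma adjusted p = 0.00448), Dntt, the terminal transferase gene, was higher (0.33, adjusted p = 0.0176), and 10 of the 12 did not pass.

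Rtn1 is shown with the sequence in front of its start sites because it carries most of the difference in this group. RefSeq lists 3 starts for Rtn1 on chromosome 12 (GRCm38.p6, minus strand), and the first and the second along the gene lie 172327 bases apart, so transcripts of the gene begin at distant promoters. The third start is not shown. The 250 bases before each of the other starts read as follows, with capitals marking matches to the GC box GGGCGG on either strand.
Rtn1 distal start, chr12:72409055-72409304: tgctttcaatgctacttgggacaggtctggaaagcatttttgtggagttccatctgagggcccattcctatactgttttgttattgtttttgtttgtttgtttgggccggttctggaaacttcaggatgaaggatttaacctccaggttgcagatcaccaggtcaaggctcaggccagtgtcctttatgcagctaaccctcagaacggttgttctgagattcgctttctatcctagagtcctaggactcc
Rtn1 internal start, chr12:72236728-72236977: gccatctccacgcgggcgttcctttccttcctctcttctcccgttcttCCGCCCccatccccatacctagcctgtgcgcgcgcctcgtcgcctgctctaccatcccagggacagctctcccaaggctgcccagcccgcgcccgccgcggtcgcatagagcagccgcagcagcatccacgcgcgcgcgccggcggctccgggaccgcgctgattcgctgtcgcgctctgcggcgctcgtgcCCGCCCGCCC
The distal window had 46.0% G and C with 3 CpG dinucleotides, and the internal window 72.4% with 35, against a median of 52.4% and 6 over 32851 windows of the same length. The internal window held 3 matches to the GC box, of which the last 2 overlap, and the distal window held 0, while 32.7% of all windows held at least 1 match. Neither window held the TATA box TATAAA, which occurs on either strand in 12.4% of all windows, or the E-box CACGTG, which occurs in 6.02%. The CCAAT box, present in 33.8% of all windows, and the forkhead core GTAAACA, present in 3.17%, were also not among their letters. A match is a description of letters, and the array does not tell which start was used. Rtn1 has 1 probe set, and the sources used here do not say which of its transcripts that probe set covers.

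Rtn1 was far lower in the Cre-labelled arrays than in the controls. Its log2 value was 9.94, 10.01 and 9.95 in control arrays 1, 2 and 3, against 8.14, 8.30 and 8.25 in Cre-labelled arrays 1, 2 and 3. The 3 values of each group lay close together, and the groups were separated by a gap of 1.64. The group means were 9.97 ± 0.040 (SD, n = 3) and 8.23 ± 0.081 (SD, n = 3), a difference of -1.73 ± 0.054 (SE), or 3.33-fold. Cre-labelled array 3, which resembled the controls over all probe sets, did not do so for Rtn1. With each array left out in turn the difference stayed between -1.77 and -1.69. RNA from bulk cells cannot tell fewer Rtn1-positive cells from less Rtn1 RNA per cell.

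The other 3 reticulons differed far less than Rtn1. Rtn2, a reticulon best known from muscle and nerve, had log2 values of 7.31, 7.11 and 7.31 in the controls and 7.56, 7.50 and 7.39 in the Cre-labelled arrays. The groups did not overlap and the difference was 0.24 ± 0.071 (SE). Its mean of 7.36 over all arrays lay just above the filter at 7.35, but its mean in the controls, 7.24, lay below it, so Rtn2 passed only through the Cre-labelled arrays (mean 7.48), and nothing is read from its direction. The genes of the same brightness had a median difference of 0.11. When the arrays were centred on their medians, quantile normalized again or adjusted by loess, the difference of Rtn2 was 0.14, 0.14 and 0.13.

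Rtn3, which also serves as a receptor for the autophagy of ER tubules, read 13.38, 13.36 and 13.36 in the controls and 13.36, 13.41 and 13.35 in the Cre-labelled arrays. The groups overlapped, and the difference was 0.0088 ± 0.043 (SE), with a 95% interval from -0.089 to 0.11. It turned to -0.094 after centring, -0.0044 with array weights and -0.0092 without Cre-labelled array 2.

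Rtn4, whose longest product Nogo-A is an inhibitor of axon growth, read 9.71, 9.67 and 9.71 in the controls and 9.64, 9.58 and 9.64 in the Cre-labelled arrays. All 3 of the latter were lower, by a gap of 0.036 between the nearest values. The difference was -0.079 ± 0.043 (SE), with a 95% interval from -0.18 to 0.020, and genes of the same brightness had a median of -0.054. The single probe set of Rtn4 does not separate Nogo-A from the shorter products.

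**Figure D1:**
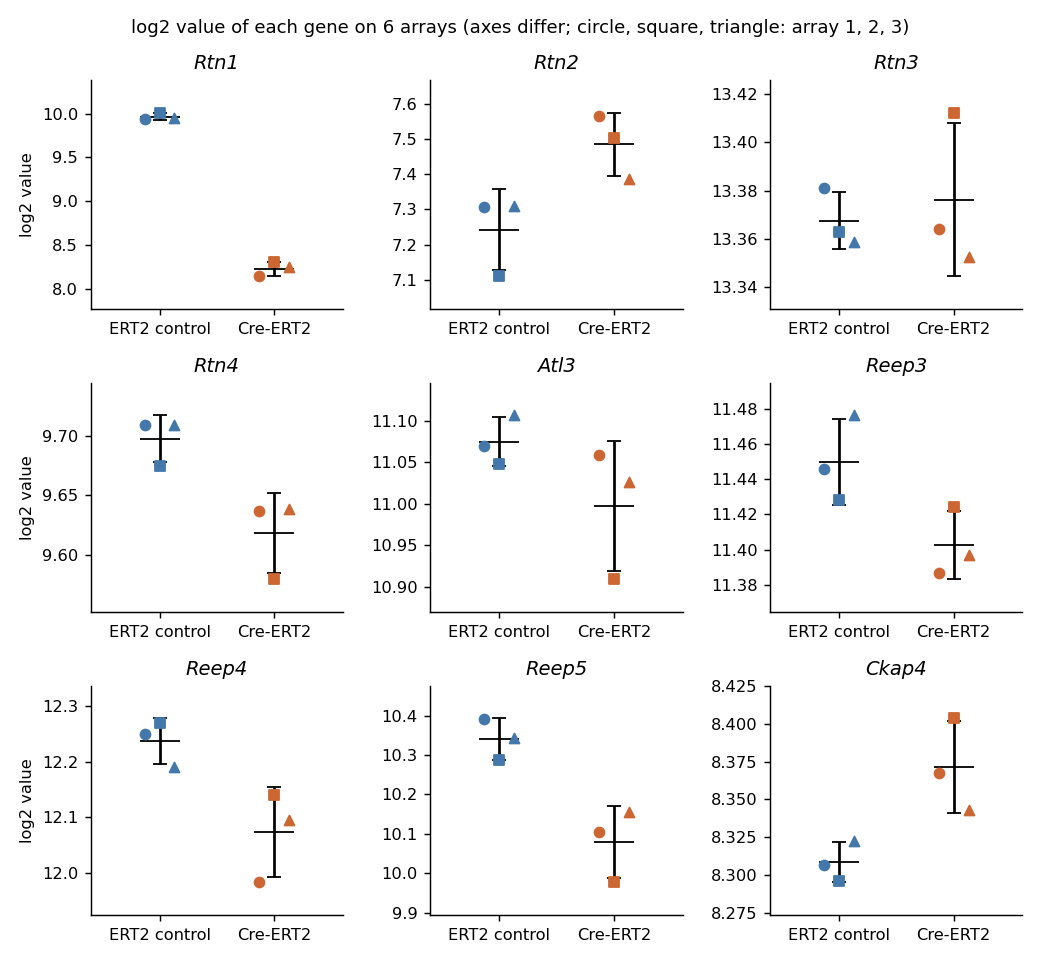
Log2 value (vertical axes, which differ between panels) of the 9 genes on 3 control arrays (blue) and 3 Cre-labelled arrays (orange); the horizontal line is the mean and the bar the SD. Rtn1 falls from about 9.97 to 8.23 with tight groups, while the 8 other genes differ by at most 0.26.

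Among the REEP genes the differences were smaller than that of Rtn1 and, by the brightest probe set of each gene, downward. Reep5, the mammalian DP1 protein that bends tubules together with the reticulons, read 10.39, 10.29 and 10.34 in the controls and 10.11, 9.98 and 10.15 in the Cre-labelled arrays. The groups did not overlap, the gap between the nearest values was 0.13, and the difference was -0.26 ± 0.058 (SE), or 1.20-fold. Genes of the same brightness had a median of -0.061, which leaves -0.20 for Reep5 relative to them. With 1 array left out the difference lay between -0.30 and -0.21.

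Reep4, which with Reep3 is known to keep ER membranes off chromosomes in mitosis, read 12.25, 12.27 and 12.19 in the controls and 11.98, 12.14 and 12.10 in the Cre-labelled arrays. The groups did not overlap, and the gap of 0.051 was smaller than the range of 0.16 within the Cre-labelled arrays. The difference was -0.16 ± 0.054 (SE), and it was -0.12 without Cre-labelled array 1.

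Reep3 read 11.45, 11.43 and 11.48 in the controls and 11.39, 11.42 and 11.40 in the Cre-labelled arrays. Its groups were separated by 0.0038 only, and the difference was -0.047 ± 0.042 (SE), with a 95% interval from -0.14 to 0.049. Reep3 was the 1 member with 2 probe sets, and they disagreed: the dimmer, with a mean of 7.12 below the filter, had a difference of 0.16, and the mean of both gave 0.055.

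Atl3, the atlastin that also acts as a receptor for ER autophagy, read 11.07, 11.05 and 11.11 in the controls and 11.06, 10.91 and 11.03 in the Cre-labelled arrays. The groups overlapped, since Cre-labelled array 1 lay above control array 2, and the difference was -0.077 ± 0.052 (SE). It was -0.033 without Cre-labelled array 2 and -0.18 after centring. Ckap4, the sheet spacer, read 8.31, 8.30 and 8.32 in the controls and 8.37, 8.40 and 8.34 in the Cre-labelled arrays. All 3 of the latter were higher, with a difference of 0.063 ± 0.043 (SE). Genes as dim as Ckap4 had a median difference of 0.12, and the sign of Ckap4 turned to -0.033, -0.039 and -0.019 after quantile normalization, centring and loess.

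**Figure D2:**
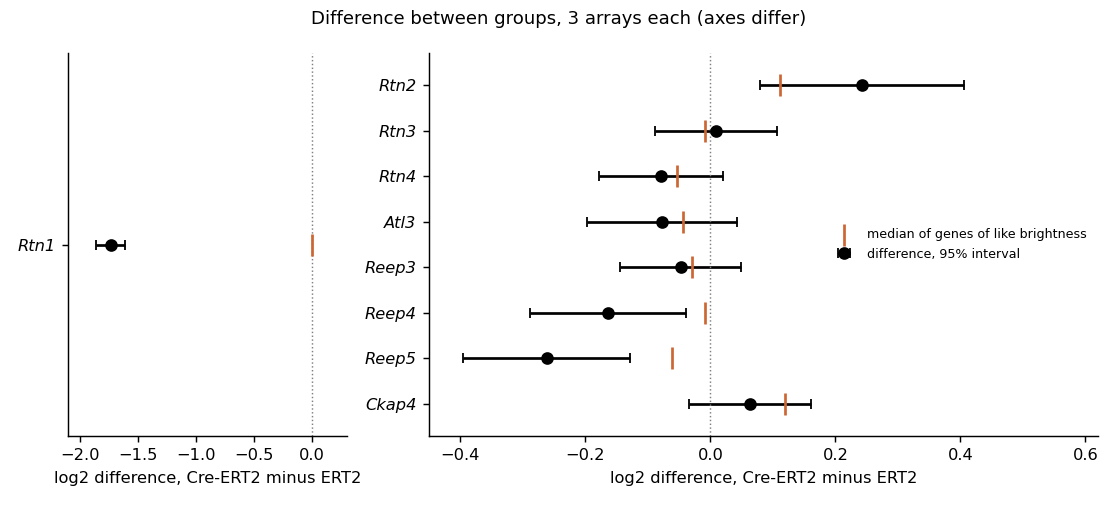
Difference in log2 value between Cre-labelled arrays and control arrays (black points) with its 95% interval for 9 genes, Rtn1 on an axis of its own; orange ticks mark the median difference of the genes in the same brightness bin (10 bins of equal size). Rtn1 at -1.73 stands far from its tick at -0.0055, Reep5 and Reep4 lie below theirs, and the intervals of the other 6 genes include theirs.

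Across the 9 measured genes, 6 differences were negative and 3 positive, with a median of -0.077 against 0.026 over all genes tested. Genes of like brightness had medians from -0.061 to -0.0055 for all of the 9 but Rtn2 and Ckap4, where they were 0.11 and 0.12. The median size of the difference was 0.079 in the group and 0.10 over all genes. In limma's fit over all genes, 2 of the 9 genes, Rtn1 and Reep5, had an adjusted p under 0.05, both lower, beside 7.62% of all genes tested (4.13% lower and 3.50% higher). That split of 617 lower and 523 higher depends on the scaling and the arrays: it was 2797 and 223 after centring, 629 and 365 after quantile normalization, 701 and 470 after loess, 1720 and 2273 with array weights, and 1346 and 1696 without Cre-labelled array 3. Groups without overlap were found for 7 of the 9 genes, 5 lower and 2 higher, beside 38.5% of all genes. With 1 array left out, Rtn1 kept its side of the threshold in all 6 fits, whereas Reep5 kept it only without Cre-labelled array 3. All 9 genes had passed the filter on dim genes, Rtn2 only through the group where it was brighter. Because the group was chosen with this contrast in view, nothing is read from these shares.

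**Figure D3:**
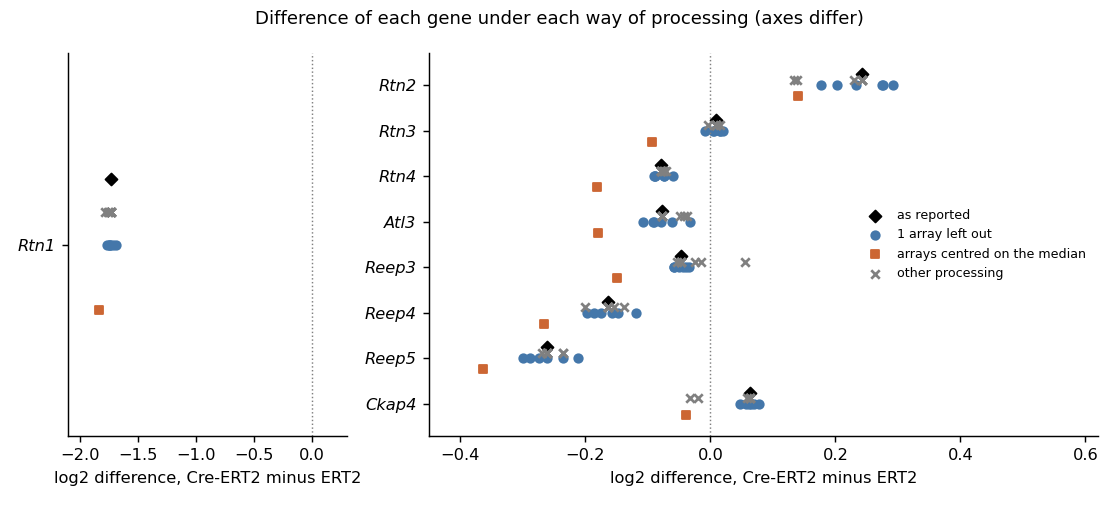
Difference in log2 value for the 9 genes (horizontal axis) as reported (diamonds), with 1 array left out (blue circles), with arrays centred on their medians (orange squares) and under the other ways of processing (grey crosses). Rtn1 stays between -1.84 and -1.69, Reep4 and Reep5 stay below 0, and Rtn3, Reep3 and Ckap4 have settings on either side of 0.

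The genes whose profile over the 6 arrays was most like that of Rtn1, among 111 with a difference of at least 0.5, were Fads2, Cdh1, Hs3st1, Scd1 and Ccnd1. Pearson's r with Rtn1 was 0.9995, 0.999, 0.998, 0.997 and 0.996 in that order, over 6 arrays that fall into 2 groups, so r mostly records the step between groups. Fads2 and Scd1 encode fatty acid desaturases, Cdh1 encodes E-cadherin, Hs3st1 a heparan sulfate sulfotransferase and Ccnd1 cyclin D1. The difference was -0.77 for Fads2, -0.61 for Hs3st1, -1.34 for Scd1 and -0.85 for Ccnd1, and the mean of Cdh1 was 10.28 in the controls and 8.28 in the Cre-labelled arrays.

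The other genes of ER form and function were then tested in 6 lists that hold none of the 10 genes. Of 115 such genes on the array, 112 passed the filter, and 1 was higher, 8 were lower and 103 did not pass limma's test, a share of 8.04% against 7.62% of all genes. The median difference was -0.019. With the filter at the 50th percentile, which keeps brighter genes, 3 were higher and 13 lower. Over all genes that filter gave 552 higher and 1011 lower. Quantile normalization and loess each gave 3 higher and 6 lower, and centring gave 1 higher and 28 lower, beside 223 higher and 2797 lower over all genes after centring. Without control array 1, 2 or 3 the number called was 1, 2 and 3, and without Cre-labelled array 1, 2 or 3 it was 1, 4 and 21.

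Of 17 tested genes that shape tubules and sheets, 2 were called, both lower, and 15 did not pass, with a median of -0.016. Lnpk encodes lunapark, which stabilises the 3-way junctions that atlastins form, and fell from 10.85 ± 0.067 to 10.54 ± 0.10 (SD, n = 3 each), a difference of -0.31 ± 0.064 (SE, limma adjusted p = 0.0312). Tmem33, which encodes an ER membrane protein known to bind reticulons, fell from 10.97 ± 0.019 to 10.80 ± 0.036 (difference -0.18, limma adjusted p = 0.0466). Spast, which encodes the microtubule-severing partner of atlastin, had a difference of -0.26 and did not pass (limma adjusted p = 0.0594). Reep6 at 0.13, the GTPase gene Rab18 at -0.30 and the kinectin gene Ktn1 at -0.14 did not pass either (limma adjusted p = 0.117, 0.170 and 0.185). Without Cre-labelled array 2, Rab18 had a difference of -0.13 and Ktn1 of -0.064.

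Of 14 genes of ER autophagy, 1 was higher, 1 lower and 12 did not pass, with a median of -0.051. Retreg2, which encodes a relative of the reticulons with a reticulon homology domain, fell from 10.42 ± 0.030 to 10.17 ± 0.044 (difference -0.25 ± 0.046, SE; limma adjusted p = 0.0239). Its paralogue Retreg3 had a difference of -0.11 and did not pass (limma adjusted p = 0.116). Gabarapl2, which encodes an ATG8 protein of the autophagosome, had a difference of -0.22, the receptor gene Sec62 -0.16 and Ddrgk1, of the UFM1 ligase complex, -0.16, and none of them passed (limma adjusted p = 0.0557, 0.0680 and 0.0935). In all 4 of these genes the Cre-labelled arrays lay below the controls by the brightest probe set. These 4 were picked by smallest p in this contrast, so nothing is read from that. Of all 14 genes, 5 had groups without overlap as lower and 1 as higher, beside 17.7% and 20.7% of all genes tested. With the mean of all its probe sets Gabarapl2 had a difference of 0.015. Calcoco1, which encodes a soluble receptor that binds VAP proteins of the ER, rose from 10.33 ± 0.060 to 10.64 ± 0.014 (difference 0.32 ± 0.047, SE; limma adjusted p = 0.0124).

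Of 15 genes for reticulon receptors and binding partners, 1 was lower, 0 higher and 14 did not pass, with a median of 0.054. Nus1 encodes the Nogo-B receptor, a subunit of the enzyme that makes dolichol, and fell from 12.11 ± 0.049 to 11.89 ± 0.082 (difference -0.22 ± 0.055, SE; limma adjusted p = 0.0479). The Nogo receptor relatives Rtn4rl2 at 0.19 and Rtn4rl1 at 0.18 and the co-receptor gene Lingo1 at 0.20 did not pass (limma adjusted p = 0.0611, 0.108 and 0.0702), nor did Ormdl1, which encodes a brake on sphingolipid synthesis, at -0.19 (0.0809). Genes as dim as Lingo1 and Rtn4rl1 had median differences of 0.11 and 0.12, and after quantile normalization these 2 genes had differences of 0.097 and 0.089.

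Of 20 contact site genes, 2 were called, both as lower, and 18 did not pass, with a median of -0.0097. Mospd2, which encodes a tether of the VAP family, had a difference of -0.29 ± 0.060 (SE, limma adjusted p = 0.0312), and Tmem41b, which encodes a lipid scramblase of the ER, had -0.26 ± 0.056 (limma adjusted p = 0.0349). The lipid transfer gene Vps13c at 0.19, the VAP gene Vapa at -0.084, Rmdn3 at -0.085 and the tether gene Esyt1 at 0.076 did not pass (limma adjusted p from 0.0942 to 0.287), and Esyt1 had 0.043 without Cre-labelled array 1. Of 25 genes of the translocon and ER lumen, 1 was called, as lower, and 24 did not pass, with a median of -0.050. It was Srprb, which encodes the beta subunit of the signal recognition particle receptor, at -0.20 ± 0.045 (SE, limma adjusted p = 0.0408). The disulfide isomerase gene P4hb at -0.16, the translocon genes Ssr1 at -0.16 and Sec61b at 0.17, and the oligosaccharyltransferase gene Ddost at -0.12 did not pass (limma adjusted p from 0.0627 to 0.111).

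Of 21 genes of the unfolded protein response, 1 was lower, 0 higher and 20 did not pass, with a median of -0.0062. Chac1, which encodes a glutathione-degrading enzyme induced through ATF4, fell from 10.06 ± 0.079 to 9.50 ± 0.072, a difference of -0.56 ± 0.059 (SE, limma adjusted p = 0.00343). Atf4 itself had a difference of -0.12 and Xbp1, the splicing target of the ER sensor IRE1, 0.16, and neither passed (limma adjusted p = 0.115 and 0.0567). The ER chaperone genes Dnajb9 at -0.33 and Creld2 at -0.16 did not pass (limma adjusted p = 0.0847 and 0.105), but both passed after centring, with trended and robust moderation and with array weights. Xbp1, which was higher, passed with the latter 2 settings and also after quantile normalization, after loess and with the filter at the 50th percentile. Over the 15 other fits Dnajb9 passed in 4, Creld2 in 3, Atf4 in 2 and Xbp1 in 5. Spast, Gabarapl2, Rtn4rl2, P4hb and Ssr1 of the other lists also passed in 5 each. Without Cre-labelled array 2, Dnajb9 had -0.21. Chac1 kept its call in all 6 fits with an array left out. Calcoco1 lost its call without control array 1 or Cre-labelled array 1 (differences between 0.29 and 0.35 over the 6 fits), and the other 7 genes called lost theirs in at least 4 of 6 such fits, for each gene including the fits without control array 1, without control array 2 and without Cre-labelled array 1.

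**Figure D4:**
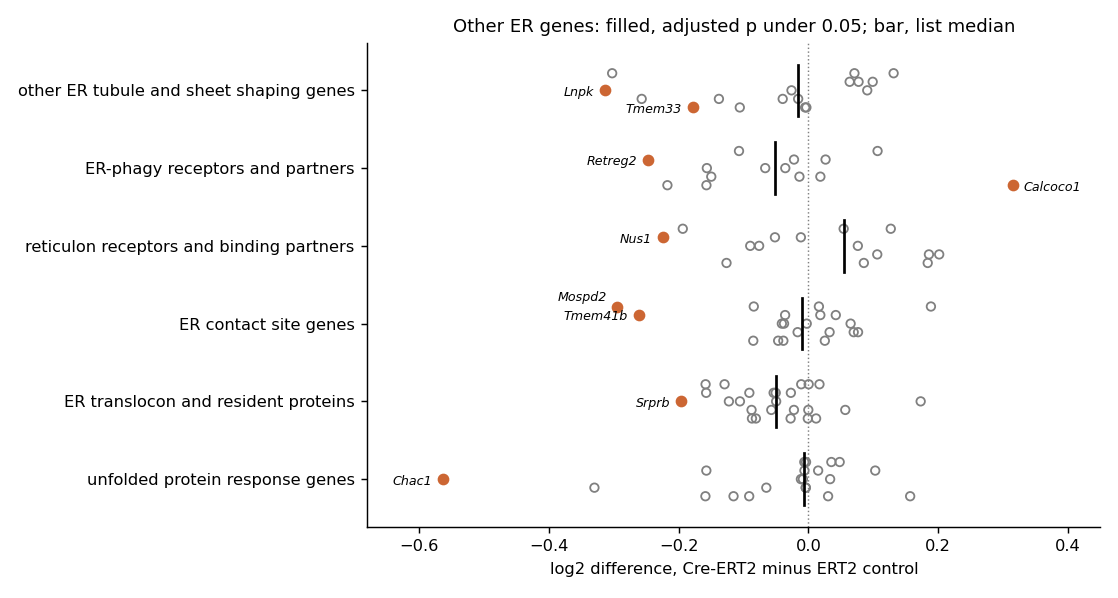
Difference in log2 value (horizontal axis) for the tested genes of 6 ER lists; filled orange points passed limma's test and are named, open points did not, and the black bar is the list median. The filled points are 8 genes to the left of 0 and Calcoco1 to the right, and every list median lies between -0.051 and 0.054.

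Markers of other cells were measured beside Rtn1, since Rtn1 is also a gene of nerve and neuroendocrine cells. For the 12 neuronal and neuroendocrine markers, the log2 of the summed signal lay from 11.95 to 12.01 in the controls. In the Cre-labelled arrays it lay from 12.03 to 12.04. Of the 9 that passed the filter, Syt1 was higher (0.22, limma adjusted p = 0.0387) and 8 did not pass. The list median was 0.094, and genes as dim as Syt1 and Chga had a median difference of 0.12. Chga was at 0.21, with groups that did not overlap, and did not pass (limma adjusted p = 0.0684). Chgb at 0.15, Snap25 at 0.12, Syp at 0.094, Gap43 at 0.094 and Eno2 at 0.040 did not pass either. The markers Tubb3 and Uchl1 had -0.0052 and -0.085. For the 13 myeloid markers the log2 of the summed signal lay from 11.52 to 11.54 in the controls. In the Cre-labelled arrays it lay from 11.71 to 11.77, with 7 markers below the filter. Of the 6 tested only the lysozyme gene Lyz2 passed, at 0.79 (limma adjusted p = 0.00588). Lyz2 had a mean of 9.24 in the controls and 10.04 in the Cre-labelled arrays, where it was the brightest of the 6. The sum leans on Lyz2 and is not read as a rise of all 13. The Fc receptor gene Fcgr1 at -0.26, with groups that did not overlap, and Cd68 at -0.11 did not pass (limma adjusted p = 0.0563 and 0.418), and Elane, a neutrophil elastase gene, had a mean of 7.74 in both groups. Mpo at 0.20 and Itgax at 0.081 did not pass either (limma adjusted p = 0.256 and 0.555). Genes as dim as these had a median difference of 0.11, and the median of the myeloid list was 0.040. Lists for T and NK cells, for erythroid cells with megakaryocytes, and for stroma had 0 members called by limma among 4, 3 and 8 tested, with 3, 0 and 5 at an unadjusted p under 0.05. Those at that cut were all higher, and the list medians were 0.15, 0.11 and 0.17. Genes of like brightness had medians from 0.088 to 0.12 for the first 2 lists and from -0.030 to 0.12 for stroma. The share of all genes at that cut is not given, so nothing is read from these counts. The part of other cells in the differences of the ER genes was not tested.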

How the data were processed

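Expression was measured in RNA of 6 samples on mouse Affymetrix arrays, 3 per group, with groups and replicate numbers taken from sample titles. The deposited log2 values, 1 for each of 35556 probe sets and array, were made by the authors with RMA and Partek 6.5, per the submitters' processing notes, which give no order or settings. No genome build is stated there or in the file, so coordinates of probe sets are not printed, and probe-level files were not used.

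Probe sets were named through the platform annotation: 21789 carried 1 symbol, 1621 several and 12146 none. The brightest probe set of each of 19938 genes was kept, and genes with a mean under the 25th percentile (7.35) were left out. The remaining 14953 were fitted with limma 3.58.1 in R 4.3.3 (lmFit, eBayes, two-sided, Benjamini-Hochberg over all genes, threshold 0.05), without covariates. No p is given for the 9 genes described. Array values carry no count depth, so 3 arrays per group limit the precision. Brightness was compared in 10 equal bins of genes. The fit was tested on simulated data.

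The members, lists and alternatives were chosen with earlier results of these data known, and the promoter motifs after the data were seen. The text names all members, each list gene that passed, up to 4 more per ER list by smallest p, and the 5 genes most like Rtn1. All tested myeloid and neuronal markers are also named. Promoter windows come from RefSeq (GRCm38.p6), and windows of 7 of 10 members were kept. Windows on chromosome 18, where Reep5 lies, were left out before this count, so it does not show what RefSeq holds for Reep5. Alternatives were other filters, probe set means, quantile, median or loess scaling, trended and robust moderation, array weights, a replicate block, leaving out each array, and a threshold of 0.01. Tables and figures were made with Python 3.11.15, pandas 2.3.3 and matplotlib 3.10.9.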

Additional observations from a re-analysis of the deposited data

How the results depend on the processing

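Over all genes, 1140 were called as reported, and 437 with no filter on dim genes, 3020 with arrays centred on their medians, 2147 with trended and robust moderation, 3993 with array weights, 143 at a threshold of 0.01 and 116 to 3042 with 1 array left out, the highest without Cre-labelled array 3. Of the 9 reticulon and ER-shaping genes, 2 were called as reported, 1 with no filter and 1 at a threshold of 0.01 (Rtn1 in both), 4 with array weights and 1 to 3 with 1 array left out. Rtn1 was called in all 15 other fits and Reep5 in 8 of 15. Because the 9 genes were chosen with this contrast in view, their calls are a description and nothing is read from them. Of the other ER genes, 9 were called as reported, 3 with no filter, 16 with the filter at the 50th percentile, 29 after centring, 18 with trended and robust moderation, 25 with array weights, 1 at a threshold of 0.01 and 1 to 21 with 1 array left out. Centring moved the median difference of all genes from 0.026 to -0.077, so differences after it are relative to that shift. With the replicate number as a block, 147 genes, 1 of the 9 (Rtn1) and 1 of the other ER genes were called. The labels do not say whether same-numbered arrays share more than a number. The correlations of their deviations from the group means were 0.069, -0.17 and -0.40. With 3 arrays per group these values cannot decide whether the arrays were paired. The causes of these changes in counts were not tested, and fits with an array left out hold fewer arrays. No result reversed its call. Signal over background was not used here, so detection of the dimmest genes, Rtn2 among them, cannot be stated.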
